A study of Drosophila melanogaster with 2 samples.

Results

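Peaks deep inside introns made up 876 of the 4576 peaks (19.1%, exact 95% interval 18.01 to 20.3%) at which the zinc finger protein CG10147 was mapped in Drosophila melanogaster embryos. A peak belonged to them when its summit lay inside an annotated gene, in no exon, and more than 2000 bp from every annotated transcription start site (TSS). Within those 4576 peaks position was the only criterion, but every peak had first passed the authors' limit on agreement between the replicates, and the 4576 are also the strongest by signal. The flies carried a stably inserted transgene, CG10147 with GFP joined to its C-terminal end, and chromatin of whole embryos of both sexes, 0 to 24 hours old, was precipitated with an antibody to GFP. The series analysed here held 1 group with 2 libraries, named biological replicates 2 and 3, from this transgenic line, and no second condition. The peaks are those of the tagged protein in a mixture of all embryonic stages and tissues, so the cells in which a site was occupied are not known from them. The 4576 peaks are a list thresholded for reproducibility between replicates (irreproducible discovery rate, IDR), called on both libraries together, and each replicate also had a list of its own. Values are the peak signal of the authors' peak caller, on a scale that no source used here states.

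Introns of fly genes hold many of the enhancers that direct developmental transcription, and long first introns are a common place for them. Proteins with zinc fingers can bind DNA by letting successive fingers contact neighbouring bases, so the sites of such a protein often share a short sequence word. A summit inside an intron marks where precipitated DNA was most abundant, and does not by itself name the gene that a site acts on.

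The 3 strongest sites had G+C contents of 22% (Kdm2), 29.5% (trx) and 38% (Tlk) in the 200 bp around their summits. In windows 1000 bp away these were 44.5%, 40.5% and 50.5%. Not all of the 25 strongest were poorer in G and C than their flanks, as CG32486 had 47.5% at the summit and 36.5% in its flank. The 200 bp around the summits of the 3 strongest far intronic peaks are shown because they lead the list by signal, from the RefSeq copy of the Release 6 assembly, which has the coordinates of dm6, on the plus strand and with the summit at base 101. Capitals mark every copy, on either strand, of the 10 words of 7 bases with the lowest adjusted p at these summits, which are described below.
Kdm2, chr3R:9057425-9057624: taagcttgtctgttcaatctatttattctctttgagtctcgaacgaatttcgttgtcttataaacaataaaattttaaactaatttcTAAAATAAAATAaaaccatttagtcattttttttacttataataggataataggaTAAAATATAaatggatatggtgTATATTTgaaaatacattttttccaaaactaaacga
trx, chr3R:14283782-14283981: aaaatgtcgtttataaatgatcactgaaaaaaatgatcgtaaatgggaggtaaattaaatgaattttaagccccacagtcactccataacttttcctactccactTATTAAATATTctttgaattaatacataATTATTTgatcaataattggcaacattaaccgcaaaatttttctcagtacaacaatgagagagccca
Tlk, chrX:3742108-3742307: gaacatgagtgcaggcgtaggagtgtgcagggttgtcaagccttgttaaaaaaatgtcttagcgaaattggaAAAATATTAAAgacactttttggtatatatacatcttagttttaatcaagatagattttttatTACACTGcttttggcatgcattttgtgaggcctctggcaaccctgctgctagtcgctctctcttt
Kdm2 encodes a histone demethylase, trx a histone methyltransferase that keeps developmental genes active, and Tlk a kinase linked to chromatin assembly.

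A second display shows an arrangement found at 17 of the 876 sites, a word of 7 bases on the right of the summit and its reverse complement on the left. It is shown because the word had one of the lowest p values and mostly kept 1 direction relative to the summit, as described below. These 5 peaks were among the strongest members with both copies between 100 and 300 bp apart, centre to centre, on either side of the summit. The plus strand is shown from 10 bp before the left copy to 10 bp after the right copy, and capitals mark the copies.
Gug, chr3L:8458231-8458431: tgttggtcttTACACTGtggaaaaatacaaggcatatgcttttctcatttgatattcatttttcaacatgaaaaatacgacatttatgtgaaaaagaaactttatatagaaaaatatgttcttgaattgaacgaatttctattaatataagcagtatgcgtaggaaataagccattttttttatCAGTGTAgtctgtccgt
Zdhhc8, chrX:9352197-9352412: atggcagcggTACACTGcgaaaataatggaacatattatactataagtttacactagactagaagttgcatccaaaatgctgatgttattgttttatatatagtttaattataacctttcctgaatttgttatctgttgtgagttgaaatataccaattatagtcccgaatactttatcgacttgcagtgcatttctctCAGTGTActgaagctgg
Prp16, chrX:14218093-14218286: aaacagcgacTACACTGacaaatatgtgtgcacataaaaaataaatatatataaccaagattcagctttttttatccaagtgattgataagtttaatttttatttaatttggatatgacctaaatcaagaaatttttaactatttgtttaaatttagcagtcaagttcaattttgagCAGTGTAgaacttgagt
Rbfox1, chr3L:10554628-10554829: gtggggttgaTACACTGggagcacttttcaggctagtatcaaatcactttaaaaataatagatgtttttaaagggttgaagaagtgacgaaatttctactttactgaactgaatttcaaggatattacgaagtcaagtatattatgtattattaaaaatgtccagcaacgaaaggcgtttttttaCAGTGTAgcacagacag
hiw, chrX:15022350-15022512: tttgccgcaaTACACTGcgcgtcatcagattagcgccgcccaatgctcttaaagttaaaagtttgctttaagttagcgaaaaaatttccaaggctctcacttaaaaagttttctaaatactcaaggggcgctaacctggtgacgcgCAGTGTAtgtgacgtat
Between the copies, the summit fell at base 97 in Gug, 116 in Zdhhc8, 90 in Prp16, 94 in Rbfox1 and 44 in hiw. Gug encodes Atrophin, a transcriptional corepressor, Zdhhc8 a palmitoyltransferase, Prp16 an RNA helicase of splicing, Rbfox1 an RNA-binding regulator of splicing, and hiw a ubiquitin ligase known for its role at synapses. In the 17 members with such a pair the copies were 136 to 271 bp apart, with a median of 164 bp.

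Far intronic summits lay a median of 5225 bp from the nearest TSS, with quartiles at 3309 and 8668 bp. Of the 876, 459 were over 5000 bp away, 179 over 10000 bp and 48 over 20000 bp. The most distant lay 47626 bp from any TSS, in hth, which encodes a homeodomain cofactor of Hox proteins, with a signal of 184.8. The nearest TSS belonged to the gene around the summit in 597 members (68.2%) and only to another gene in 279 (31.8%). The smallest intron around a summit had a median length of 13437 bp, and the median distance to an exon was 3004 bp. Of the members, 865 lay in a protein-coding gene, and 49 lay in more than 1 gene at once. Just inside the distance limit were peaks in drn at 2004 bp with a signal of 285.1, in Kdm2 at 2007 bp with 279.2 and in Klp98A at 2009 bp with 163.1. Just outside it were peaks in CG9171 at 1993 bp with 213.7, in CG43867 at 1989 bp with 272.6 and in CCHa2-R at 1984 bp with 165.7. The signals of these few named peaks spanned a similar range on both sides of the limit.

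Sequence open to such peaks (intronic, in no exon and more than 2000 bp from any TSS, called eligible here) came to 41.4 Mb, or 30.9% of the bases of the 6 chromosome arms. It held 21.2 far intronic summits per Mb (exact 95% Poisson interval 19.8 to 22.6, counting error only). For scale, intronic sequence 500 to 2000 bp from a TSS held 57.3 near intronic summits per Mb, sequence within 500 bp of a TSS held 134 promoter summits per Mb, and intergenic sequence held 14.4 per Mb. Density fell with distance inside the eligible sequence itself: it was 31.8 per Mb (28.8 to 35.0) up to 5000 bp from a TSS, 25.3 (22.4 to 28.4) from there to 10000 bp, and 10.4 (8.93 to 12.04) beyond. Distance is the rule's own measure, so these densities are a description. The eligible sequence includes long genes without a pooled summit of any strength, such as Myo81F with 1937525 bp and Pzl with 698938 bp. How their bases divide among the distances was not counted, and the densities were not recalculated without them.

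Nearly all far intronic peaks had a summit in each library's own list. The IDR list was thresholded for agreement between these same libraries, so high shares were in part set by that selection, in every class of peaks. A summit within 100 bp was found for 834 of the 876 (95.2%) in replicate 2, for 855 (97.6%) in replicate 3, and for 814 (92.9%) in both. Only the peak in flw, which encodes a protein phosphatase subunit, had none in either, and its nearest summits lay 110 bp away in both lists. The share found in both was 92.9% for far intronic and 88.3% for promoter peaks, a difference of 4.597 percentage points (Newcombe 95% interval 2.35 to 6.62, Fisher's exact test adjusted over 3 comparisons, p = 0.000314). With a TSS limit of 5000 bp it was 2.96 points and did not pass (adjusted exact p = 0.226). By the same exact test, it was 92.9% for far intronic and 91.6% for near intronic peaks, a difference of 1.32 points whose interval, −1.35 to 4.14, includes 0 (adjusted p = 0.382), but with a TSS limit of 1000 bp it was 4.57 points (adjusted exact p = 0.0171). Against intergenic peaks, at 91.2%, the difference was 1.68 points (−1.16 to 4.81, adjusted exact p = 0.382).

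Being found at all is a weak demand, since each replicate list was long. Among the strongest 4576 summits of each replicate, 528 members (60.3%) were matched in both. The share followed signal: in 4 groups of 219 members, from the strongest to the weakest, 217, 178, 117 and 16 members were in both. The weakest group ranks near 4576 in the pooled list as well, by its construction, and at any rank 188 of its members (85.8%) were matched in each replicate.

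**Figure D1:**
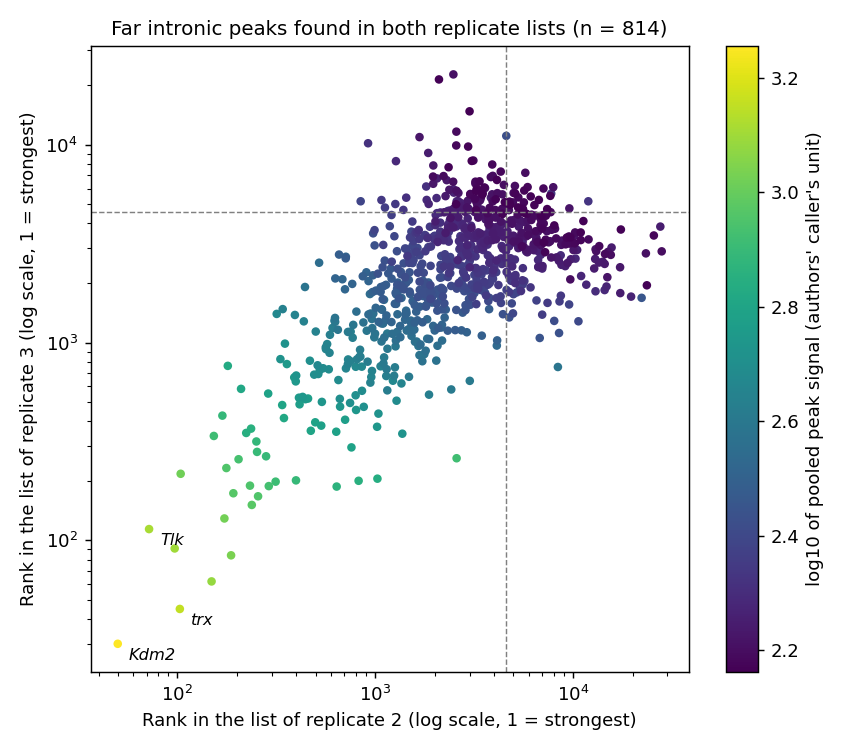
Rank of each far intronic peak in the list of replicate 2 (x axis) and of replicate 3 (y axis), both log scales with 1 the strongest, for the 814 members found in both; colour is the log10 of the pooled signal and dashed lines mark rank 4576. Kdm2 ranked 50 in replicate 2 and 30 in replicate 3, and the weaker members scatter widely around the dashed lines.

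Signals ranged from 144.6 to 1803, with a median of 220, against a median of 230 for near intronic, 240 for promoter and 208 for intergenic peaks. Far intronic peaks were a smaller part of the top of the list: 47 of the 500 strongest pooled peaks were far intronic (9.40%, 6.99 to 12.3%), against 20.8% of those ranked 2289 to 4576. Of far intronic peaks 45.7% exceeded the median signal of the list, and of promoter peaks 53.5%, a difference of −7.89 points (−11.7 to −4.02, Fisher's exact test, adjusted p = 0.000202). The difference was −4.23 points with an adjusted exact p of 0.0584 in replicate 2's list alone, and −4.08 points with 0.159 when summits in soft-masked, repeat-like sequence were left out. Near intronic peaks exceeded the median in 50.7% of cases, and the difference of far intronic from near intronic peaks was −5.02 points (−10.1 to 0.0311, adjusted exact p = 0.0665). That difference passed the test in replicate 3's list alone (−6.46 points, adjusted exact p = 0.0184), with a TSS limit of 5000 bp (−8.23 points, p = 0.00550) and with chained summits reduced to the strongest (−6.88 points, p = 0.01796). Against intergenic peaks, at 40.6%, it was 5.09 points (−0.276 to 10.4, adjusted exact p = 0.0665).

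The strongest far intronic peak lay in Kdm2, with a signal of 1803 in the pooled list, 715.6 in the list of replicate 2 and 1099 in that of replicate 3. It was the 50th of replicate 2 and the 30th of replicate 3, and its summit fell in soft-masked sequence. A second peak in Kdm2, 2625 bp from a TSS, had a pooled signal of 898.4 and ranked 256 in replicate 2 and 167 in replicate 3. In trx the peak had a signal of 1433 in the pooled list, 497.8 in replicate 2 and 956.4 in replicate 3. In Tlk it had 1291 in the pooled list, 597.1 in replicate 2 and 690.2 in replicate 3. Scales of the 3 lists were not the same, so only ranks can be set side by side, and by rank trx stood at 103 in replicate 2 and 45 in replicate 3, and Tlk at 72 in replicate 2 and 114 in replicate 3.

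Other members of the 25 strongest lay in genes of several kinds. Transcriptional cofactors among the hosts were Gug with signals of 1210 and 785.0, simj, a subunit of the nucleosome remodelling complex NuRD, with 1087 and 834.8, mam, the Notch coactivator Mastermind, with 786.3, and Smr, a corepressor of nuclear receptors, with 728.7. Chromatin kinase JIL-1, which phosphorylates histone H3, held a peak of 859.3. Signalling genes were Raf, a kinase of the MAP kinase pathway, with 1045, and PRAS40, an inhibitor of TOR signalling, with 847.5. DNA-binding proteins were mamo, a zinc finger protein of the germ line, with 927.8 at 42276 bp from a TSS, and the nuclear receptor Hr3, with 890.4 in an intron it shares with CG12912 and CG46321. Dys, the fly dystrophin, held 824.4. The rest lay in CG12769 with 1262, tara with 1049, Pits with 938.7, CG34417 with 896.7, atos with 813.2, Lrch with 795.2, sbb with 774.8, CG13894 with 770.1 and CG32486 with 719.6. All 25 were found in each replicate's list, where their ranks reached down to 2581 in replicate 2 and 427 in replicate 3. Rank 2581 was that of the second simj peak, which shares its region with the first. In the whole list the 25 ranked between 34 and 295, and 18 of them lay in a first intron.

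The 876 peaks lay in 518 host genes of the 4333 genes with eligible sequence (12% over all genes). A single far intronic peak was held by 319 hosts, at least 2 by 199, at least 3 by 101 and at least 5 by 26. CG10147 itself held none. Peaks within 1000 bp of each other formed 62 chains with 132 members, the largest of 4, so members in 1 intron are not all separate loci.

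The genes with most far intronic peaks were tara and sbb, with 11 each, and ush, with 9. The 11 peaks of tara, a nuclear protein of the trithorax group, all lay in a first intron, between 4674 and 10383 bp from a TSS, with signals of 147.4 to 1049. In sbb, a nuclear protein of eye and brain development, the 11 peaks also all lay in a first intron, with signals of 146.4 to 774.8, up to 22072 bp from a TSS. In ush, the cofactor of GATA factors U-shaped, signals ran from 146.5 to 621.8. lncRNA:CR44357 and kirre, an adhesion receptor of myoblast fusion, held 8 each, and lncRNA:CR44357 overlaps CG1677 on the X. With 7 each came shn, a zinc finger protein of BMP signalling, Eip75B, an ecdysone-induced nuclear receptor, and Tet, a dioxygenase of nucleic acid modification. Raf and mam were 2 of 8 genes with 6 each and are named because their strongest peaks led the 8. The same number was held by Snoo, msn, px, CG1677, lncRNA:CR44999 and CHES-1-like, a forkhead protein gene with only 7453 bp of eligible sequence. By contrast kirre had 287530 bp, so its 8 peaks came to 2.78 per 100 kb, against 43.8 per 100 kb in tara.

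**Figure D2:**
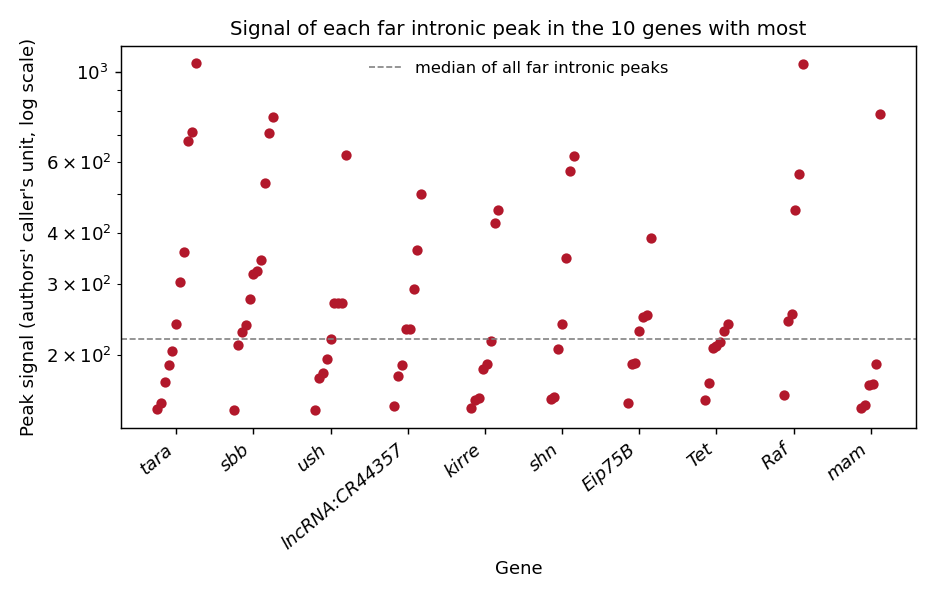
Signal of each far intronic peak (points, log scale, authors' caller's unit) in 10 genes with most of them (of 8 genes tied at 6 peaks, Raf and mam); the dashed line is the median of all 876. Signals run from 147.4 to 1049 in tara, while the 7 peaks of Tet lie between 155.1 and 239.

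Some genes with long eligible introns held none. The largest were Myo81F with 1937525 bp and Pzl with 698938 bp, at the start of the right arm of chromosome 3. No pooled summit of any strength lay in either gene. Of their eligible bases 41.1% and 35.2% were soft-masked, against 24.1% of all eligible bases, and whether reads could be placed there was not tested. Outside such sequence, bru3 had 243889 bp of eligible intron and heph 130961 bp, and both held weaker pooled summits, 25 in bru3 and 54 in heph, none of which was a far intronic IDR peak.

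First introns held more of the far intronic peaks than their share of sequence. Of the 876, 532 (60.7%, exact 95% interval 57.4 to 64.0%) lay in a first intron of an annotated transcript, whereas 37.6% of eligible bases did (two-sided exact binomial test, p = 1.56e-43). The excess was present at each distance. Up to 5000 bp from a TSS the share was 68.8% of 417 summits against 51.3% of eligible bases, from there to 10000 bp it was 58.2% of 280 against 42.6%, and beyond 10000 bp it was 45.8% of 179 against 23.9% (exact binomial p = 4.94e-13, 2.26e-07 and 1.81e-10). Bins of distance were chosen after the overall share was seen. Neighbouring peaks of 1 intron count separately in these tests, which treat summits as independent. The eligible bases include those of Myo81F and Pzl, in which no pooled summit lay, and the excess was not recounted without such genes.

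Density also varied by chromosome arm. The X held 24.9 far intronic summits per Mb, 3L 23.0, 2L 22.6, 2R 20.5 and 3R 17.6, and chromosome 4 held 0 in 0.445 Mb, where a count of 0 allows up to 8.28 per Mb. Chromosome 4 (adjusted exact binomial p = 0.00116), 3R (p = 0.00796) and X (p = 0.0260) passed the test. Calls for 3R and X did not hold in either replicate's own list, with adjusted p of 0.0580 for both in replicate 3's list and 0.0715 in replicate 2's, and that for chromosome 4 did not hold with a TSS limit of 5000 bp (0.0764) or among the stronger peaks (0.0771). Without Myo81F and Pzl, which make up 23.5% of the eligible sequence of 3R, its density was 23.1 per Mb (19.96 to 26.5), close to that of 3L. The bases of these genes also lower the share of eligible sequence against which X and the other arms were tested. None of the arm tests was repeated without them, so the call for X may depend on them as well.

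Around far intronic summits the DNA was poor in G and C. Over 200 bp, G+C content was 33.7 ± 6.28% at the summit and 40.1 ± 7.94% in a window 1000 bp away (SD, n = 876). It was lower at the summit in 656 members, higher in 205 and equal in 15 (two-sided exact sign test, p = 1.05e-55). In steps of 25 bp the mean fell to 29.7% next to the summit, and it rose to 44.9% at 237.5 bp on the right, above the 40.1% at 987.5 bp. Promoter peaks had 32.8% at the centre, in DNA with 44.6% G+C at 987.5 bp. Of far intronic windows 50.8% lay below the median G+C of the list, and of promoter windows 44.8%, a difference of 5.997 points (2.14 to 9.84, adjusted Fisher's exact p = 0.00703). Near intronic windows were below it in 50.5%, and the difference of far intronic from near intronic windows was 0.265 points (−4.78 to 5.31, adjusted exact p = 0.959). G+C content can also affect how well fragments are amplified and sequenced, and with the control not analysed here its part in these profiles was not tested.

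**Figure D3:**
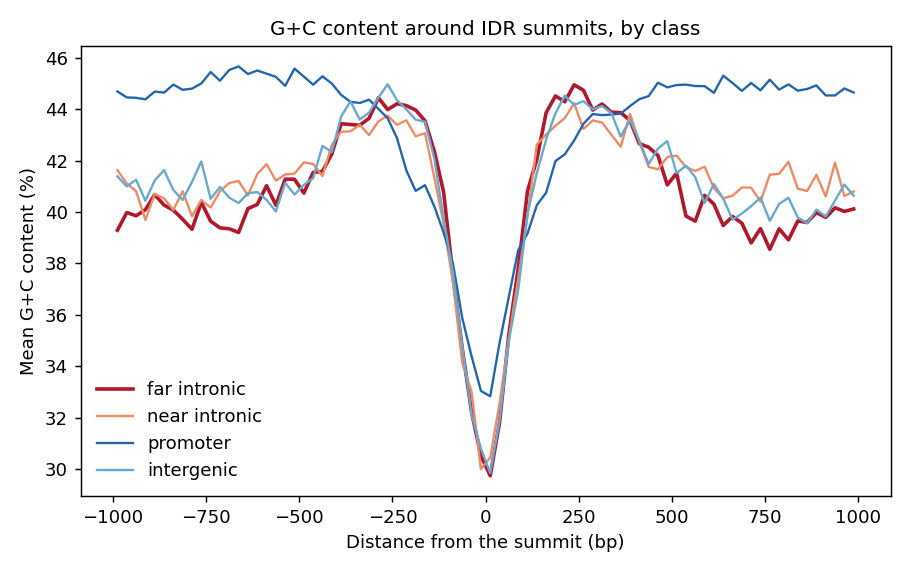
Mean G+C content (%, y axis) in 25 bp steps around IDR summits (x axis, bp) for far intronic, near intronic, promoter and intergenic peaks. Far intronic peaks dip to 29.7% at the centre with shoulders near 44.9%, and promoter peaks sit on a higher plateau with a centre of 32.8%.

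Of the 8192 words of 7 bases (each counted as 1 with its reverse complement), 189 were more frequent at far intronic summits than in the windows 1000 bp away (2.31%), and 87 were less frequent (1.06%), by exact McNemar tests adjusted over all words. The 276 words called in both directions came to 272 in replicate 3's list and 95 in that of replicate 2, 61 without soft-masked summits, 65 among the stronger peaks, 138 in windows of 100 bp, 54 with a TSS limit of 5000 bp and 675 with one of 1000 bp. Of the 189, 153 held at most 1 G or C, and 55 none. ATATTTA was in 26.8% of windows at summits and 10.5% of those in flanks (adjusted exact p = 6.50e-14), and in 12.1% of all 200 bp tiles of eligible sequence. TAAAATA was in 23.9% of summits and 9.70% of flanks (adjusted exact p = 3.87e-12). Another 6 of the 10 words with the lowest p were also made of A and T alone. Of the summit windows AAATATA was in 25.6% and AAATATT in 28.0%, compared with 11.99% and 13.8% of the flanks. For AATATTA the shares were 17.8% of windows at summits and 6.85% of those in flanks, and for AAAATAT they were 28.9% and 14.95%. TATTAAA had a share of 20.1% at summits and 8.22% in flanks, while AAATAAT had one of 24.2% and 11.8%. Of the 87 words that were rarer at summits, GGGGAAA was in 1.48% of windows at summits and 5.94% of those in flanks (adjusted exact p = 0.00017).

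The other 2 of the leading 10 shared a core. CAGTGTA, the word marked in the pairs above, was in 78 of 876 summit windows (8.90%) and 8 flanks (0.913%, adjusted exact p = 2.10e-12), and in 1.94% of the tiles. CACTGAG was in 8.56% of summit windows, 1.26% of flanks (adjusted exact p = 5.38e-10) and 1.79% of tiles. Just below them, ACACTGA was in 8.33% of windows at summits and 1.48% of those in flanks, and CAGTGCA in 10.05% and 3.31%. Of the 36 called words with at least 2 G or C, 9 held CACTG or its reverse complement CAGTG, and at least 1 of these 9 was in 322 summit windows (36.8%) and 131 flanks (14.95%). Those 9 words overlap one another and were grouped after their values were seen. In windows of 100 bp none of the 4 words whose shares are given here was called: CAGTGTA was then in 1.37% of windows at summits and 0.799% of those in flanks (adjusted exact p = 0.868), and the fullest position bins, given below, lay outside the 50 bp that such a window reaches on each side.

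Copies of CAGTGTA pointed towards the summit. Within 200 bp of far intronic summits, 72 copies of its reverse complement TACACTG lay on the left and 66 copies of CAGTGTA on the right, against 6 and 9 in the opposite arrangement, so 138 of 153 copies (90.2%, exact 95% interval 84.3 to 94.4%) faced inwards. The highest bins were centred 62.5 bp to the left, with 18 copies, and 87.5 bp to the right, with 20. At Tlk, shown above, the copy lay on the right in the outward reading. This arrangement was noticed in these peaks, so its size there is a description. It was then counted around 7506 weaker far intronic peaks of the pooled list, below the IDR list and more than 1000 bp from any IDR summit. There 349 of 464 copies faced inwards (75.2%, 71.0 to 79.1%, two-sided exact binomial test, p = 1.84e-28). Those weaker peaks come from the same 2 libraries. The share was 86.6% around the far intronic summits of replicate 2's own strongest 4576 and 89.3% around those of replicate 3, and 92.8% with soft-masked summits left out. Near intronic peaks had 67 inward copies and 10 outward ones, intergenic peaks 88 and 13, and promoter peaks 154 and 39, so the arrangement was also seen outside introns and its difference between classes was not tested.

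**Figure D4:**
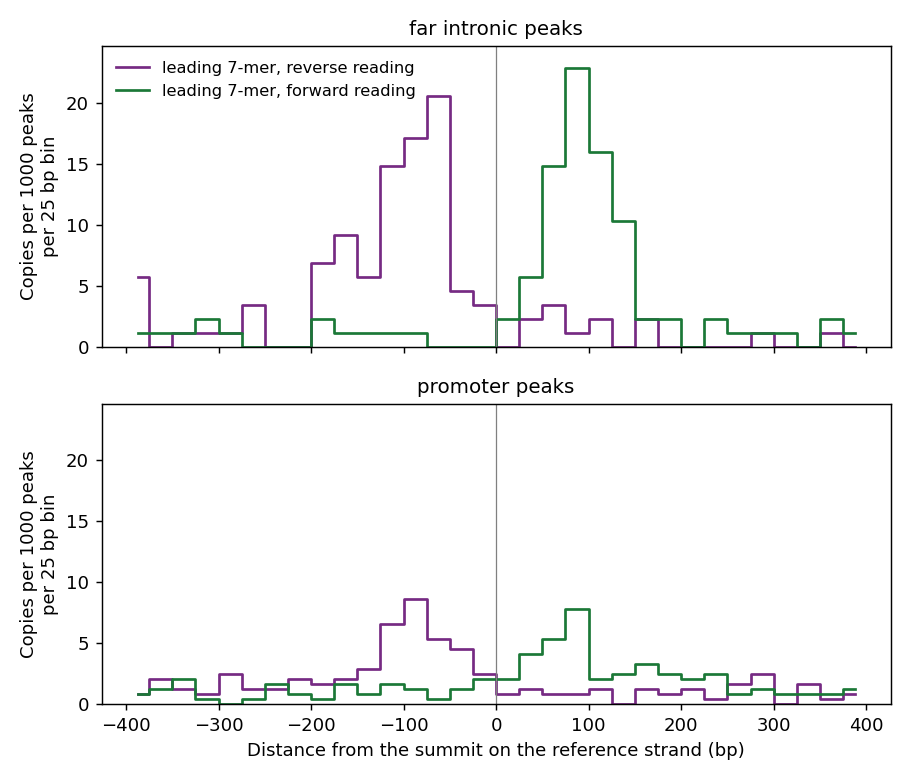
Copies of the leading 7-base word per 1000 peaks in bins of 25 bp (y axis) by distance from the summit on the reference strand (x axis, bp), for far intronic peaks (top) and promoter peaks (bottom); purple is the reverse complement and green the forward reading. At far intronic peaks the purple line peaks left of the summit at 20.5 copies per 1000 peaks and the green line right of it at 22.8.

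No word set far intronic apart from near intronic summits. In that comparison 0 of 8192 words passed Fisher's exact test with adjustment, and 323 had an unadjusted p under 0.05. No single word thus differed detectably between the 876 and the 655 peaks, and shifts shared by related words were not tested. CAGTGTA was in 7.02% of near intronic windows, CACTGAG in 5.50% and CAGTGCA in 6.87%, each below its far intronic share. Against promoter summits 35 words were more frequent at far intronic summits (0.427%) and 52 less frequent (0.635%). CAGTGTA was in 8.90% of far intronic and 4.41% of promoter windows (adjusted exact p = 0.000693), CACTGAG in 8.56% and 3.09% (p = 5.20e-07), and CAGTGCA in 10.05% and 3.96% (p = 3.08e-07). The words rarer at far intronic summits were led by ATCGATA, contained in the DRE element TATCGATA of fly core promoters, in 1.60% of far intronic and 13.7% of promoter windows (adjusted exact p = 6.59e-27). The leading words of A and T alone did not pass this test, ATATTTA being in 26.8% of far intronic and 24.8% of promoter windows (adjusted exact p = 0.723).

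Of 25 known consensus sequences, searched as exact letters on both strands, 2 differed between far intronic summits and flanks (8%). The TATA box TATAAAA was in 18.6% of windows at summits and 11.4% of those in flanks (exact McNemar test, adjusted p = 0.00128), and the E-box CAGCTG, a site for bHLH proteins, in 4.79% and 9.47% (p = 0.00345). In the tiles of eligible sequence TATAAAA had a share of 9.96% and CAGCTG one of 7.13%, and TATAAAA overlaps in letters with the A and T words above. Neither call held among the stronger peaks or without soft-masked summits, where the adjusted p was 0.129 and 0.0619 for both, and that of CAGCTG was 0.848 in replicate 3's list. The GATA site AGATAAG was in 3.995% of them at summits and 3.54% in flanks, the GAGA site GAGAGAG in 2.97% and 4.11%, and the Zelda site CAGGTAG in 1.03% of both. None of the 25 differed from near intronic summits with adjustment, and 1 had an unadjusted p under 0.05.

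Against promoter summits 6 of the 25 differed (24%). The DRE TATCGATA was in 0.342% of far intronic and 7.38% of promoter windows (adjusted Fisher p = 1.82e-19), and GGTCACAC, the core of the promoter element bound by M1BP, in 0.228% and 4.17% (p = 1.53e-10). By the same exact test, CAGCTG was in 4.79% and 11.1% (p = 6.27e-08), CACGTG in 1.14% and 2.60% (p = 0.0439), and the downstream promoter element CGGACGT in 0 and 0.825% (p = 0.0183). For that count of 0 an upper bound was taken as 3 of 876, or 0.342%, and not from the exact interval used for other shares. Runs of 8 A were more frequent, in 16.4% of far intronic and 12.2% of promoter windows (adjusted exact p = 0.0130). The calls for CACGTG, for the downstream promoter element and for the runs of A were lost in replicate 3's list, among the stronger peaks, beyond 5000 bp from a start site and in windows of 100 bp, with adjusted exact p up to 0.679, 0.721 and 0.299, and the other 3 were called in all 8 alternatives.

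Host genes of far intronic peaks also held promoter peaks more often. Among protein-coding genes with eligible sequence, 228 of 503 hosts (45.3%) and 893 of 3713 other genes (24.1%) had an IDR summit within 500 bp of one of their TSSs, a difference of 21.3 percentage points (16.8 to 25.8). Hosts had more TSSs, 2.32 on average against 1.70, and more eligible sequence, a median of 18286 bp against 1050 bp. Among genes with 1 TSS the shares were 82 of 205 hosts (40%) and 368 of 2178 others (16.9%), with 2 TSSs 41.7% and 28.3%, with 3 or 4 TSSs 50.8% and 40.5%, and with 5 or more 66.7% and 57.1%, the last difference having an interval of −7.95 to 24.9 points. In genes with over 30000 bp of eligible sequence the shares were 36.7% of 150 hosts and 16.5% of 206 others. Of the 16 genes with 6 or more far intronic peaks, 9 had a promoter peak, among them sbb, ush, shn and Eip75B, and 7 did not, among them tara, kirre, Tet and lncRNA:CR44357. This comparison was added after the data were seen, and neighbouring genes can share peaks.

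Density varied among gene lists drawn up by function, with earlier results of these data known. Set against 21.2 far intronic peaks per Mb and 12% of genes over all eligible sequence, the 32 genes of Notch, Wnt, Hedgehog, BMP and EGF receptor signalling with eligible sequence had 14 hosts and 33 peaks, 53.6 per Mb (36.9 to 75.3). Their strongest peaks were in mam, in shn with 619.5, in the Wnt co-receptor arr with 404.7, and in the receptor fz with 400.1. The 17 genes of nuclear receptors and ecdysone response had 6 hosts and 23 peaks, 51.6 per Mb (32.7 to 77.4), led by Hr3, then Hr4 with 650.7, Eip75B with 389.7 and ftz-f1 with 339.6. Chromatin-associated regulators had 15 hosts of 27 genes and 38.1 peaks per Mb (23.6 to 58.2), with trx first, then the remodeller Mi-2 with 658.3, ken with 404.5 and jing with 375.2.

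Genes of mesoderm, heart and muscle held 34.3 peaks per Mb (15.7 to 65.1) in 5 of 22 genes, among them Mef2, the muscle transcription factor, with 4 peaks up to 294.9, lbl with 300.7, how with 243.5 and Zasp52 with 217.6. Patterning transcription factors held 25.8 per Mb (12.9 to 46.1) in 4 of 17 genes, hth with 4 peaks up to 447.9, the Hox gene Antp with 5 up to 418.8, cnc with 268.0 and cad with 247.1. Neuronal fate factors held 16.6 per Mb (7.57 to 31.4) in 4 of 23 genes, hth again among them, with grh at 432.4, ct at 241.9 and bi at 197.4. Genes of cyclic nucleotide and calcium signalling held 19.4 per Mb (10.02 to 33.9) in 9 of 23 genes, led by dnc, a phosphodiesterase of memory, with 501.7, then rg with 345.9, Pde11 with 221.9 and Pde6 with 219.8. All of these intervals include the overall 21.2 per Mb.

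At the other end, genes of ion channels and neurotransmitter receptors had 4 hosts of 37 and 5 peaks in 0.931 Mb, 5.37 per Mb (1.74 to 12.53). Those were 2 in the potassium channel Sh, up to 306.3, and 1 each in the calcium channel Ca-alpha1T with 250.6, in Shab with 221.0 and in Ih with 184.2. The 16 genes of synaptic vesicles and active zones held 0 peaks in 0.388 Mb, which allows up to 9.50 per Mb. Whether reads could be placed in all of that sequence was not tested. Neuronal and developmental RNA-binding genes held 11.98 per Mb (6.55 to 20.1) in 7 of 17 genes, shep with 450.1, Rbfox1 with 355.5, pum with 269.3 and mub with 249.8. Axon guidance and cell adhesion genes held 36 peaks in 17 of 52 genes, 16.5 per Mb (11.5 to 22.8), with kirre at 455.2, Nrg at 441.5, side at 311.6 and fra at 282.9. That last interval includes the overall 21.2 per Mb. By share of genes with a peak, the RNA-binding list (41.2%) and the axon guidance list (32.7%) lay above the 12% over all genes. The ion channel list, at 10.8%, and the synaptic list, at 0, lay below it. Genes of a list share long introns and chains of peaks, and the intervals cover counting error only, so the densities describe the lists.

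**Figure D5:**
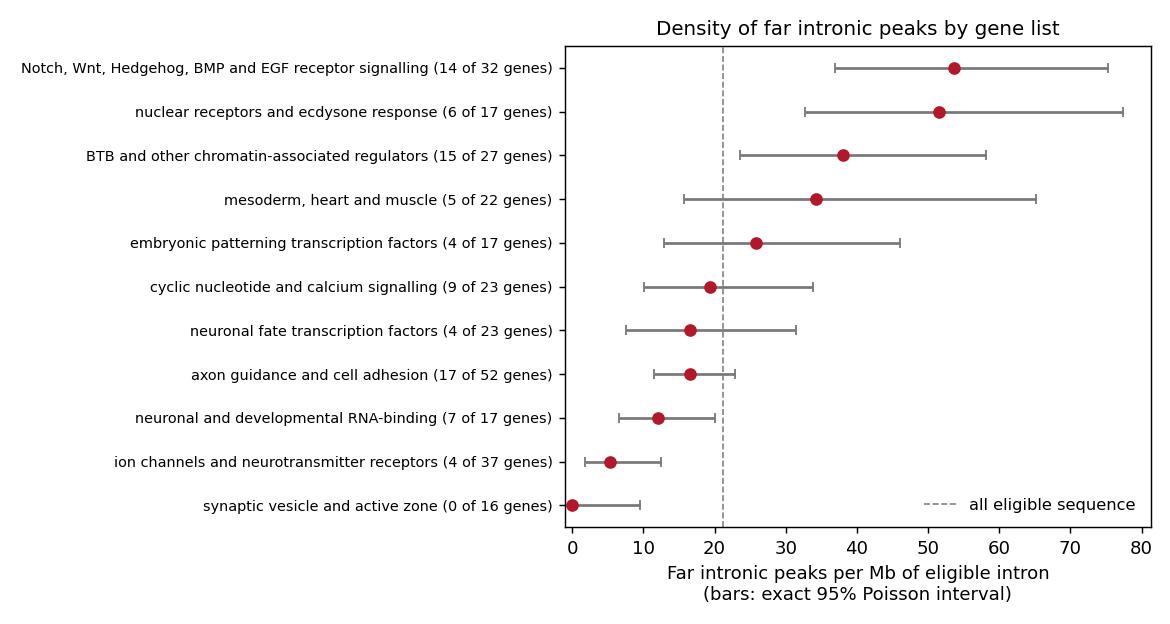
Far intronic peaks per Mb of eligible intron (x axis) for 11 gene lists, with points for the density and bars for the exact 95% Poisson interval; the dashed line is the density over all eligible sequence, 21.2 per Mb. Signalling genes lie at 53.6 and nuclear receptors at 51.6, to the right of the line, and synaptic genes at 0.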

How the data were processed

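ChIP-seq of CG10147-GFP gave 2 libraries in 1 group. Per the labels' file lists, the authors called peaks with a control for each replicate and for both pooled, on dm6, and thresholded a list by IDR; no source used here names the caller, aligner or threshold, and control libraries were not used. Each peak carries the authors' deposited signal, without a stated scale, and a deposited −log10 q-value, not used for ranking because many peaks share the maximum of 4.13 in the pooled list. The IDR list holds the 4576 strongest pooled peaks. Read depth is unknown, so no peak has an interval of its own.

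Summits were placed with FlyBase annotation 6.54 (Ensembl release 115, transposable elements left out), taking promoters (500 bp) first. Sequence came from the RefSeq copy of Release 6. Shares were compared with Fisher's exact tests, words and motifs with exact McNemar tests against flanks and Fisher's exact tests between classes of peaks. These, and the binomial tests of chromosome arms, were Benjamini-Hochberg adjusted at 0.05 (Python 3.11.15, scipy 1.17.1). Only the word tests were checked on simulated data. The p-values of the sign test, of first introns and of inward copies are unadjusted. These p-values describe positions in pooled libraries, not variation between embryos. Named were the 25 strongest members, the 10 genes with most, up to 4 per gene list, the 10 words with the lowest p and motifs past the threshold. Members, lists and motifs were chosen with earlier results of these data known, and other members were named after their values were seen. Alternatives used each replicate's own strongest 4576 peaks, the stronger part of the list, TSS limits of 1000 and 5000 bp, unmasked summits, chained summits, other windows, flanks and match distances.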

Additional observations from a re-analysis of the deposited data

How the results depend on the processing

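Of the values with a test, 45 kept their direction and side of the threshold under an alternative, 6 that had not passed changed sign, 4 passed the threshold newly and 3 lost it. Of the counts and shares without a test, 35 changed little (counts by at most 1.5 times) and 28 by more. The causes were not tested. Signal and G+C differences below are between shares of peaks, in points: those above the list's median signal and those below its median G+C. G+C differences are far intronic minus near intronic, so a negative value means a smaller share of far intronic windows with low G+C. The first intron excess, the lower G+C at summits and the inward share of copies held under each alternative run for them. For the first intron excess, no alternative left out long genes without a pooled summit, such as Myo81F and Pzl. With a TSS limit of 1000 bp the far intronic share was 26.7%, 675 words and 5 motifs were called against flanks, and the replicate match exceeded that of near intronic peaks by 4.57 points. With 5000 bp the share was 10.03%, with 308 hosts, 54 words, 3 motifs against promoters and 0 arms, and the host promoter difference was 15.6; the match difference was −1.53 against near intronic and 2.96 against promoter peaks (adjusted exact p = 0.226), the signal difference −8.23 against near intronic peaks and the G+C difference −0.513. For the stronger part of the list the share was 17.5%, with 290 hosts, 65 words, 0 motifs against flanks, 3 against promoters and 1 arm, a host promoter difference of 14.6 and a G+C difference of −3.56. Without soft-masked summits there were 61 words, 0 motifs against flanks and 1 arm, with differences of −4.08 in signal against promoter peaks and −0.971 in G+C. With chained summits reduced to the strongest, the differences from near intronic peaks were −6.88 in signal and −0.782 in G+C. Windows of 100 bp gave 138 words and 3 motifs against promoters, and flanks 2000 bp away 4 motifs.

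With either replicate's own list in place of the pooled one, the signal difference was −6.46 to −6.00 points against near intronic and −9.54 to −4.23 against promoter peaks, the G+C difference −3.44 to 1.58, the words 95 to 272, the motifs 1 to 2 against flanks and 3 to 7 against promoters, the arms 1 in each and the share 17.7 to 19.1%. Matching needs both replicates and has no such value. No paired analysis was possible because both replicates belong to 1 group. Depth is unknown, so how far it limits weak members cannot be given.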

Other observations

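Over the 6 chromosome arms as a whole, TACACTG followed by CAGTGTA, centres 100 to 300 bp apart with both copies facing each other, occurred 188 times. An IDR summit lay between the copies in 36 of these pairs (19.1%, exact 95% interval 13.8 to 25.5%), and a pooled summit of any strength in 68 (36.2%). Among 43 pairs that faced away from each other, 1 held an IDR summit (2.33%, 0.0589 to 12.3%). Pairs in the same direction held one in 3 of 76 and 0 of 74 cases. In eligible intronic sequence 17 of 83 facing pairs held a far intronic summit, against 1 of 15 that faced away and 0 of 21 and 0 of 30 in the same direction. Most facing pairs therefore had no IDR peak. The pairs were defined after the words around the summits had been seen, so these are descriptive values.

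Below the IDR list, the far intronic part of the pooled list grew with rank, to 25.7% of ranks 4577 to 10000, 31.9% of the next 10000 and 35.9% of ranks 20001 to 30000. From rank 10001 on it lay above its 30.9% share of the bases.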
